A study of Mus musculus with 4 samples.

Results

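The genes described here build ribosomes in the nucleolus: 34 protein-coding genes that encode the proteins of small nucleolar ribonucleoproteins (snoRNPs), RNA polymerase I and its factors, nucleolar chaperones, and the assembly factors of the small and the large ribosomal subunit. They were taken by gene name, with no level or difference in the rule, and all 34 were found among the 55487 genes of the expression table. The table held 4 libraries of mouse neural stem cells, cultures derived from the embryonic neocortex that can self-renew and give rise to neurons and glia, with 1 library per group. The control was Tut1f/f cells, which carry a loxP-flanked ("floxed") Tut1 gene, given empty lipid nanoparticles (empty LNP). The other libraries were Tut1f/f cells, p53f/f cells with a floxed Trp53 gene, and Tut1f/f;p53f/f cells with both genes floxed, each given nanoparticles that carry Cre recombinase mRNA (Cre-LNP) for 3 days. The labels name these libraries wild type, Tut1 KO, P53 KO, and Tut1 and P53 KO, and the last of these is called double KO here, with Trp53 written for P53. Cre came from transient mRNA and no promoter limited it to 1 cell type. The sources used here do not say whether cells of several animals were pooled. Tut1 encodes the terminal uridylyltransferase that modifies the end of U6 small nuclear RNA, and Trp53 encodes the transcription factor p53.

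Ribosomal RNA is transcribed by RNA polymerase I in the nucleolus, where snoRNPs guide its methylation and pseudouridylation and large complexes of assembly factors fold and cleave it into the small and large subunits. Growing and dividing progenitors, such as those of the developing neocortex, depend on this pathway. When ribosome assembly fails, free ribosomal proteins bind Mdm2 and p53 is stabilised, so the pathway and p53 are known to be linked.

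Levels are in TPM (transcripts per 1000000), a unit that scales each library to the same total and adjusts for transcript length. Where a gene is given 4 TPM values, they stand in the order control, library labelled Tut1 KO, library labelled Trp53 KO, library labelled double KO. A difference is the difference of log2(TPM + 1) between 2 libraries, and it was called when its size passed 1. This scale understates the change of genes with low levels. TPM does not keep the number of reads, so the depth of the libraries is unknown. With 1 library per group there was no replicate spread to set a difference against, no test was possible, and every statement compares these 4 libraries and not the genotypes.

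Checks of the labels came out unevenly. Trp53 had 119.9, 100.4, 39.7 and 41.9 TPM, so it was lower in both libraries in which it should have been deleted. Tut1 had 12.2, 29.8, 12.5 and 13.7 TPM. The library labelled Tut1 KO thus had more Tut1 RNA than the control, and that labelled double KO had no less. A whole-gene value does not show which exons were read. Xist, the RNA of the inactive X chromosome, had 0.00969, 188, 204 and 0.00895 TPM, and Ddx3y on the Y chromosome had 24.4, 0, 0 and 25.7 TPM. The libraries labelled control and double KO therefore differed in sex-linked genes from the other 2, and this split cannot be told apart from a difference between the Tut1 comparisons made with and without Trp53. Of the 5 comparisons made here, double KO minus control was the only one between libraries on the same side of this split. In all 3 comparisons with the control, the empty nanoparticles of the control also cannot be told apart from the genotype. All 10 neural stem cell markers were detected, with summed levels of 10586 to 12448 TPM, whereas 0 of 6 microglial, 0 of 4 endothelial and 0 of 4 erythroid markers reached 1 TPM in any library. Neuronal markers summed to 166 to 241 TPM (mostly Map2, with Stmn2 and Neurod6 below 1 TPM), oligodendrocyte markers to 100.1 to 118 TPM (mostly Cnp, with Mog and Mag below 1 TPM), and fibroblast markers to 27.8 to 39.9 TPM, carried by Pdgfra.

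Before the levels, the promoters of 4 members are shown, since members that share a pathway can be compared in sequence as well as in level. RefSeq promoter windows on GRCm38.p6, from 250 bases before to 50 after each transcription start, matched 28 of the 34 members with 35 windows. The members without a window were Dcaf13, Fbl, Rrp12, Tcof1, Npm1 and Bop1. Each sequence printed is the 250 bases before the start, read on the gene's strand, with CACGTG (the E-box that Myc family factors bind) and GGGCGG or its reverse complement CCGCCC (the GC box of Sp family factors) in capitals. Nop2 (chr6:125131633-125131882, plus strand) holds 1 of each, Rrn3 (chr16:13780449-13780698, plus strand) holds CACGTG at 2 places, and Ddx21 (chr10:62602299-62602548, minus strand) and Polr1a (chr6:71908803-71909052, plus strand) hold neither. Of the 34 members, Polr1a had the widest span between its highest and its lowest library and Ddx21 the next.
Nop2: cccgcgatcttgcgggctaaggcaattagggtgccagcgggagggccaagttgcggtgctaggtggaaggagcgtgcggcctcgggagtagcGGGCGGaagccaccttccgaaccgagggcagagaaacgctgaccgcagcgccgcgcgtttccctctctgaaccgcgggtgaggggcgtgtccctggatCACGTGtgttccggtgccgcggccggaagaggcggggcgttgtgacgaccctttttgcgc
Rrn3: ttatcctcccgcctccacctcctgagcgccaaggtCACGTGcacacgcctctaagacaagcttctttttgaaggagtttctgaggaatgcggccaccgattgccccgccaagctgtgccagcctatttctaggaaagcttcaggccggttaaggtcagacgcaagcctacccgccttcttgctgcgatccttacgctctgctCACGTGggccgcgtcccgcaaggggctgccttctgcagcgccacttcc
Ddx21: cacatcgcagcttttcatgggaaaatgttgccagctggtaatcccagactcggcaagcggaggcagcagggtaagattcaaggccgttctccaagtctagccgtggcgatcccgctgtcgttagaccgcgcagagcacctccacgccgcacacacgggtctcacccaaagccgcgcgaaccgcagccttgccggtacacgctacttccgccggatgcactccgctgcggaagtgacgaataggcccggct
Polr1a: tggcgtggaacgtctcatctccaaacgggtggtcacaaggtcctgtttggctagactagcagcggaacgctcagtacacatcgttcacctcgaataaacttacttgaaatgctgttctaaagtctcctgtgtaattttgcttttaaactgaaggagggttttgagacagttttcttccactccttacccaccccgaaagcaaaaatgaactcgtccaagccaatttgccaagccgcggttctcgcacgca
In Nop2 the CACGTG begins 60 bases before the start and the GC box 158 bases before it. In Rrn3 the matches begin 215 and 48 bases before the start. CACGTG was found in 6 of 35 member windows (Nop2, Pes1, Rrn3, Utp20, Utp4 and Wdr43) in 7.15% of all 32851 RefSeq windows of the same length and in 7.84% of those of protein-coding genes. GGGCGG on either strand was found in 25 of 35 member windows, in 35.7% of all windows and in 46.2% of the 21263 windows of protein-coding genes. The 25 member windows belong to 21 members. Ddx21 and Rrn3 are among them, with matches that lie outside the 250 bases printed. TATAAA on either strand was found in 2 member windows, those of Dkc1 and Pes1, in 13.6% of all windows and in 12.6% of those of protein-coding genes. These are matches of letters and say nothing on binding in these cells.

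All 34 members were expressed at 10 TPM or more in all 4 libraries, from 10.2 TPM for Rrp12 in the library labelled Trp53 KO to 1235 TPM for Npm1 in the library labelled double KO. Their summed levels were 3779, 3600, 3704 and 4078 TPM, between 0.360% and 0.408% of a library. In bulk RNA, fewer cells of a type and less RNA per cell cannot be told apart, for these and all other levels given here. Npm1, the most abundant member, held a large part of these sums. Without it they were 2631, 2651, 2616 and 2843 TPM, and the library labelled double KO was still the highest. For 33 of 34 members the highest level was less than 1.5 times the lowest, beside 73.1% of all genes, and Polr1a was the exception. The median span between the highest and the lowest library was 0.28 on the log2 scale for the members and 0.39 for the 9314 genes with at least 10 TPM in a library. Of the members, 28 had a span below that of the median gene.

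**Figure D1:**
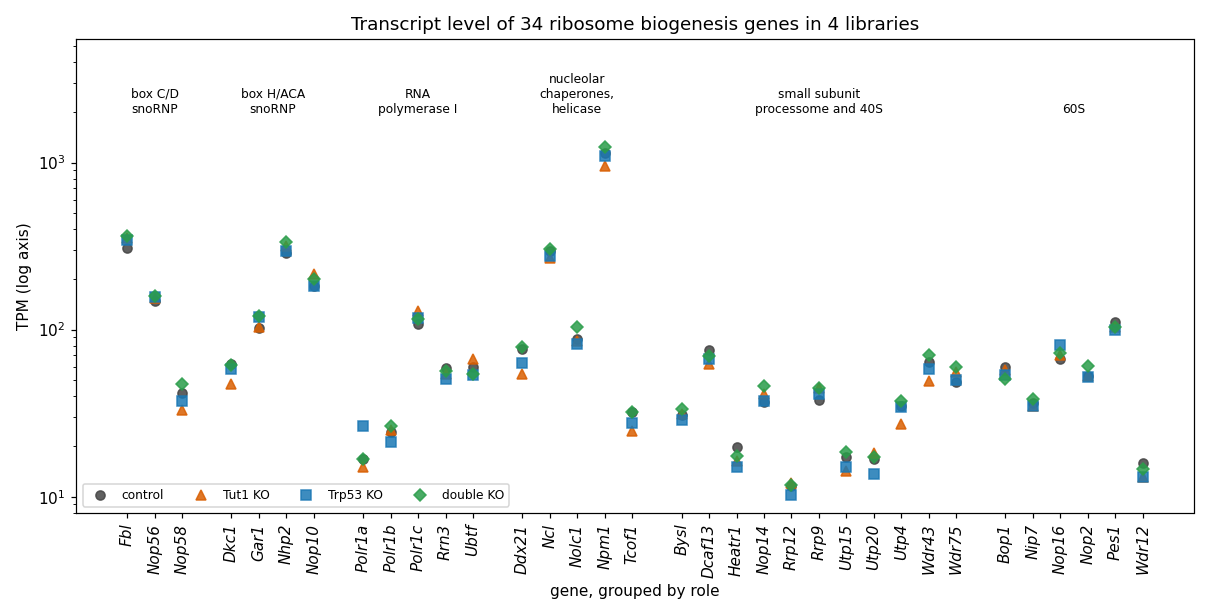
Level of each of the 34 members (TPM, log axis) in the 4 libraries, with 1 point per library and the genes grouped by role. The points of a gene lie close together at levels that run from 10.2 TPM (Rrp12) to 1235 TPM (Npm1), and Polr1a is the gene whose highest point is 1.76 times its lowest.

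No member passed the threshold of 1 in any of the 5 comparisons, in either direction. Over all genes, between 1.41% and 2.13% passed it upward and between 1.77% and 2.61% downward. In the library labelled Tut1 KO minus the control, where 1.48% of all genes were past 1 upward and 2.61% downward, the members ran from -0.48 to 0.25 with a median of -0.05, against -0.09 for all genes. Of the 34 members, 16 were above 0, beside 39.3% of all genes, and 18 below, beside 60.7%. In double KO minus Trp53 KO, where 1.41% were past 1 upward and 1.79% downward, the members ran from -0.63 to 0.35 with a median of 0.17, against 0.05 for all genes. Here 30 of 34 were above 0, beside 58.7% of all genes. In Trp53 KO minus control, with 1.92% and 1.91% of all genes past 1, the member median was -0.10 against -0.05, and 23 members lay below 0 beside 59.9% of all genes. In double KO minus Tut1 KO, with 2.13% and 1.77% past 1, the member median was 0.12 against 0.09, and 28 members were above 0 beside 60.3%. In double KO minus control, with 1.46% and 1.85% past 1, the member median was 0.10 against 0.00, and 26 members were above 0 beside 49.8%. These 5 comparisons share libraries and are not independent of each other. The scaling bears on the first of them. When the median of each library was set to the same value the member median of the library labelled Tut1 KO minus the control became 0.04, and it became 0.07 after a correction for GC content and length, so its sign is not settled by these data. The other 4 medians kept their sign, but 3 of them shrank. That of double KO minus Trp53 KO went from 0.17 to 0.12 with either change, with 26 and 29 of 34 members above 0. That of double KO minus Tut1 KO went from 0.12 to 0.04 with medians set to the same value and to 0.03 with the GC and length correction, with 19 of 34 members above 0 in both, and that of Trp53 KO minus control went to -0.05 and -0.02, with 20 and 21 members below 0. In the library labelled Tut1 KO minus the control, GC content moved with the difference: the 18 members below 0 had a median GC content of 45.9% and the 16 above 0 one of 52.9%. Exons of 12 members overlap those of a gene on the opposite strand and exons of 3 overlap a small RNA gene on the same strand. Over the 20 members without such an overlap the median of the first comparison was 0.01.

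The 2 comparisons that bear on the Tut1 label share no library. In 16 of the 34 members the difference was below 0 with Trp53 intact and above 0 without it, beside 37.1% of the 8694 genes in both comparisons. It was above 0 in both for 14 members (22% of all genes), below 0 in both for 2, Polr1a and Bop1 (23.8%), and above 0 and then below for 2, Polr1c and Nop16 (17.1%). Opposite signs in 18 of 34 members stood beside 54.2% of all genes, so opposite signs as such were no more frequent in the members. The part of the sex-linked split in these counts cannot be told apart.

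**Figure D2:**
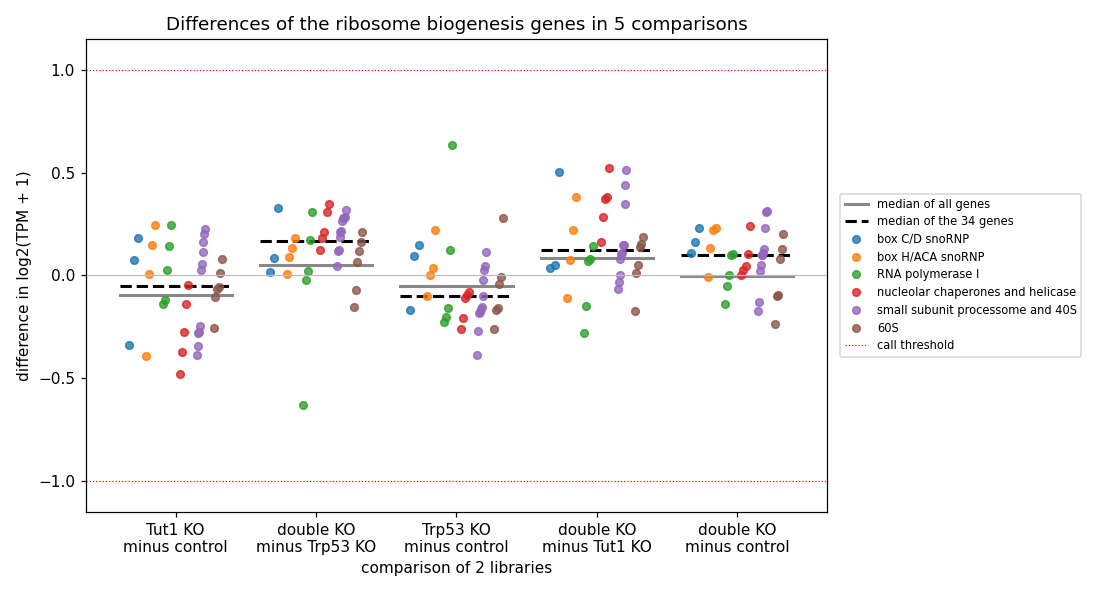
Difference in log2(TPM + 1) of each member in the 5 comparisons of 2 libraries, with 1 point per gene and all genes summarised beside them. The members stay inside the threshold of 1 in every comparison, from -0.63 (Polr1a, double KO minus Trp53 KO) to 0.63 (Polr1a, Trp53 KO minus control).

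The snoRNP proteins of the box C/D class, which methylate the ribose of ribosomal RNA, gave 3 members. The methyltransferase fibrillarin, Fbl, had 309.8, 351, 344 and 364 TPM. Nop56, a scaffold protein of the same particle, had 147, 155, 157 and 159 TPM. Both were lowest in the control and highest in the library labelled double KO, by 0.23 and 0.11. Nop58, the partner of Nop56 in the particle, had 42.01, 33.00, 37.3 and 47.1 TPM, and here the library labelled Tut1 KO was the lowest. Its difference was -0.34 for the library labelled Tut1 KO minus the control and 0.33 for double KO minus Trp53 KO. Nop58 (chr1:59684971-59719044, plus strand) has one of the longest annotated transcripts of the members, of 9507 bases with 41.0% GC. Its first difference became 0.13 with the GC and length correction. That correction uses the longest annotated transcript of each gene, which may not be the one expressed. Nop56 and Nop58 also share exon sequence with snoRNA genes on the same strand.

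The box H/ACA proteins, which turn uridine into pseudouridine, included some of the most abundant members. Nhp2, a core protein that binds the guide RNA, had 287, 318, 294 and 334 TPM. Nop10, a small protein bound to the enzyme, had 182, 216, 183 and 200.4 TPM, and Gar1, which helps release the product, had 103, 103, 119.7 and 120.4 TPM. The first 2 were higher in the library labelled Tut1 KO than in the control, by 0.15 and 0.24 (0.04 and 0.27 with the GC and length correction), and Gar1 was higher in both libraries with the Trp53 label than in both without it. Dkc1, the pseudouridine synthase itself and also a part of telomerase, had 62.02, 47.1, 57.9 and 61.7 TPM. It ran the other way, at -0.39 in the library labelled Tut1 KO minus the control and 0.38 in double KO minus Tut1 KO, values that shrank to -0.19 and 0.17 with the GC and length correction. Under that correction Gar1 was also below 0 in the first comparison, at -0.10. Dkc1 lies on the X chromosome and its exons overlap a gene on the opposite strand.

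RNA polymerase I and its factors held the member with the widest span. Polr1a (chr6:71909053-71984935, plus strand), the largest subunit, had 16.7, 15.1, 26.5 and 16.8 TPM. It stood alone high in the library labelled Trp53 KO, while the other 3 libraries lay within 15.1 and 16.8 TPM. Its difference was 0.63 for Trp53 KO minus control and -0.63 for double KO minus Trp53 KO. These were the largest differences of any member and the only ones past 1.5-fold, a size that 4.09% of all genes passed upward in the first and 4.41% downward in the second comparison (4.33% and 3.48% in the other direction). In the other comparisons, without a member past 1.5-fold, the shares of all genes past it upward and downward were 4.01% and 8.1% for the library labelled Tut1 KO minus the control, 6.49% and 4.18% for double KO minus Tut1 KO, and 3.38% and 4.38% for double KO minus control. Over the processing alternatives the Polr1a differences ran from 0.54 to 0.74 and from -0.68 to -0.53. The span of Polr1a, 0.77 on the log2 scale, was wider than that of 85.8% of all genes. An antisense gene inside Polr1a, Gm26628, had 0.582, 0.567, 0.427 and 0.386 TPM and did not share the high value.

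The other components of the polymerase did not follow Polr1a. Polr1b, the second catalytic subunit, had 24.5, 24.99, 21.2 and 26.5 TPM, and was lowest in the library where Polr1a was highest. Polr1c, a subunit shared with RNA polymerase III, had 108, 128, 118 and 116 TPM. Ubtf, which binds ribosomal DNA and opens it for transcription, had 59.9, 66.3, 53.6 and 54.4 TPM, and was lower in both libraries with the Trp53 label than in both without it. Rrn3, which couples the polymerase to the promoter and whose upstream sequence with its 2 CACGTG matches is given above, had 58.9, 54.1, 50.3 and 56.8 TPM. For Rrn3 the largest of the 5 differences was -0.22, in Trp53 KO minus control. Myc, a transcription factor known to drive many genes of this pathway, had 66.97, 64.4, 67.7 and 69.9 TPM, with 0.12 in double KO minus Tut1 KO as its largest difference.

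The nucleolar chaperones and the helicase shared their direction in the deposited values. All 5 were below the control in the library labelled Tut1 KO (median -0.27) and in that labelled Trp53 KO (median -0.11), and all 5 were higher in the library labelled double KO than in each library with a single knockout label (medians 0.37 over Tut1 KO and 0.21 over Trp53 KO). Over all genes the 4 medians were -0.09, -0.05, 0.09 and 0.05, and 60.7%, 59.9%, 60.3% and 58.7% of all genes lay on the same side of 0. Each of these 4 comparisons also crosses the sex-linked split, with control and double KO on one side, and genotype and split cannot be told apart. Npm1 (chr11:33152287-33163206, minus strand), nucleophosmin, a histone and ribosome chaperone, had 1148, 949.6, 1087 and 1235 TPM. Ncl, nucleolin, which binds ribosomal DNA and its transcript, had 297, 269.9, 277 and 302 TPM. Both had their lowest level in the library labelled Tut1 KO and their highest in that labelled double KO.

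Ddx21 (chr10:62580251-62602281, minus strand), an RNA helicase that works with RNA polymerase I and on the transcript, showed the pattern most widely in the deposited values. Its levels were 76.4, 54.6, 63.5 and 78.9 TPM. In the deposited values it was at -0.48 in the library labelled Tut1 KO minus the control, the lowest of any member in that comparison. It was at 0.52 in double KO minus Tut1 KO, the highest in the deposited values. Over the alternatives the first value ran from -0.48 to -0.28 and the second from 0.32 to 0.53, and both kept their sign. Tcof1, treacle, which supports transcription of ribosomal DNA in neural crest and neural progenitors, had 32.1, 24.6, 27.7 and 32.2 TPM, and Nolc1, a chaperone of snoRNPs, had 88.1, 85.3, 81.6 and 104 TPM. Nolc1 differed from the control by only -0.05 in the library labelled Tut1 KO. Setting the library medians to the same value brought Nolc1 to 0.05, so that 4 of the 5 genes lay below 0, and with the GC and length correction it was 3 of 5, with 4 of 5 below 0 in Trp53 KO minus control. The medians of the group shrank from -0.27 to -0.18 and -0.10 and from -0.11 to -0.06 and -0.07 in these comparisons. Under that correction 4 of the 5 were above 0 in double KO minus Tut1 KO, with a median of 0.24. Ncl was the exception, at 0.25 in the first comparison and -0.20 in double KO minus Tut1 KO. The higher level in double KO than in Trp53 KO was kept by all 5 genes under each of the 4 scalings tried. Summed over 20 proliferation genes the levels were 3026, 2399, 2941 and 2980 TPM. Their median difference was -0.30 for the library labelled Tut1 KO minus the control and 0.29 for double KO minus Tut1 KO. Both have the sign of the chaperone and helicase medians. Trp53 KO minus control gave 0.03, with 12 of 20 above 0, where the chaperones and helicase had -0.11. The median for double KO minus Trp53 KO was 0.03 as well, with 11 of 20 above 0, beside 0.21. Mki67 had 77.8, 54.7, 75.5 and 71.8 TPM. The neural stem cell markers summed to 12448, 11142, 10586 and 12214 TPM, a sum that is mostly Fabp7. Sox2 and Sox9 were also higher in control and double KO, while Vim and Hes5 were higher in the library labelled Tut1 KO than in the control, Hes1 and Pax6 were higher in that labelled Trp53 KO, and Nes was lowest in that labelled double KO. The part of these markers in the differences was not tested.

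**Figure D3:**
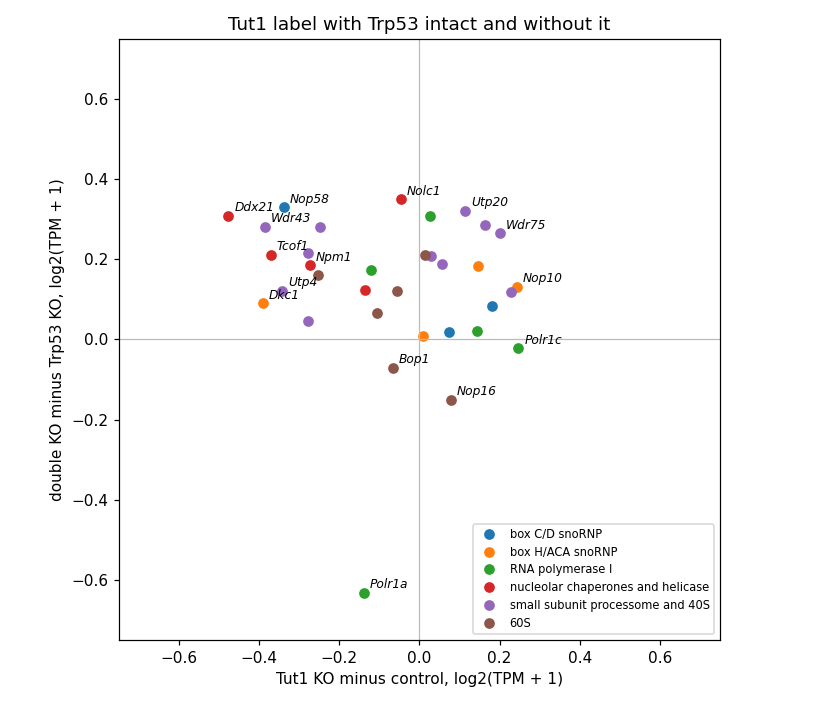
For each member, the difference in log2(TPM + 1) of the library labelled Tut1 KO minus the control (horizontal axis) against that of double KO minus Trp53 KO (vertical axis), coloured by role. Of the 34 points, 16 lie to the left of 0 and above it (37.1% of all genes), with Ddx21 (-0.48, 0.31) farthest to the left, and Polr1a lies alone at the bottom (-0.14, -0.63).

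The processome of the small subunit, the large particle that cleaves the early transcript, gave 11 members. All 11 were higher in double KO than in Trp53 KO, with a median of 0.21, beside 58.7% of all genes above 0. This became 10 of 11 when the medians were set to the same value and with the GC and length correction. Among the proteins that bind the nascent transcript first, Wdr43 (chr17:71615895-71659031, plus strand) had 64.4, 49.03, 57.8 and 70.4 TPM. It was at -0.39 in the library labelled Tut1 KO minus the control and 0.51 in double KO minus Tut1 KO, near the values of Ddx21. With the GC and length correction they were -0.18 and 0.29. Utp4 had 34.8, 27.2, 34.2 and 37.3 TPM, Utp15 had 17.2, 14.3, 15.05 and 18.5 TPM, and Heatr1, a processome scaffold that also supports RNA polymerase I, had 19.9, 16.3, 15.02 and 17.6 TPM. All 4 were lower in both libraries with a single knockout label than in the control, but Utp4 lay at 0.03 in Trp53 KO minus control with medians set to the same value, and the GC and length correction brought Utp15 and Heatr1 to -0.04 and -0.05 in the library labelled Tut1 KO minus the control. Wdr75, which belongs to the same early complex, had 48.3, 55.6, 49.9 and 60.1 TPM and was higher than the control in all 3 other libraries. The early complex was therefore not lower as a unit.

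Other processome members were mostly higher where the Tut1 label was present. Nop14 had 36.9, 41.4, 37.6 and 46.04 TPM and Rrp9, a protein of the U3 snoRNP, had 38.1, 44.8, 41.3 and 44.9 TPM. Utp20, whose promoter window holds CACGTG, had 16.7, 18.2, 13.7 and 17.3 TPM, and Bysl, which acts late on the small subunit, had 30.8, 31.4, 28.7 and 33.3 TPM. In each of these 4 genes both libraries with the Tut1 label lay above both without it. Rrp12, an export factor and the least abundant member, showed the same order at 11.5, 12.02, 10.2 and 11.7 TPM. Dcaf13, a processome protein, had 75.8, 62.4, 66.9 and 69.2 TPM and was highest in the control. Its difference between the library labelled Tut1 KO and the control, -0.28, became 0.17 with the GC and length correction.

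Factors of the large subunit fell into those of 1 complex and the rest. Pes1, Bop1 and Wdr12 form the PeBoW complex, which is needed to process the RNA of the large subunit. Pes1 had 111, 103, 99.4 and 104 TPM, Bop1 had 60.01, 57.2, 53.4 and 50.7 TPM, and Wdr12 had 15.8, 13.1, 13.04 and 14.7 TPM. All 3 were highest in the control, and Bop1 was the only member of the 34 with its lowest level in the library labelled double KO. The differences from the control were small, from -0.26 to -0.07. In the library labelled Tut1 KO minus the control Bop1 was at 0.03 with medians set to the same value. Wdr12, which has the longest annotated transcript of the members, was at 0.25 there with the GC and length correction. An expressed pseudogene of Wdr12 amounted to 13.1% of the level of Wdr12, so reads of that gene may have been split.

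The remaining factors of the large subunit were not highest in the control. Nop2, an RNA methyltransferase whose upstream sequence with both motifs is given above, had 52.4, 52.9, 52.1 and 60.4 TPM and stood out only in the library labelled double KO. Nip7, an assembly factor, had 36.1, 34.7, 35.1 and 38.3 TPM. Nop16, a nucleolar protein, had 66.3, 70.1, 80.7 and 72.6 TPM, and with Polr1a it was the only member with its highest level in the library labelled Trp53 KO. Its difference there was 0.28 from the control.

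Across roles, the library labelled double KO most often held the highest level. It was the highest for 20 of 34 members (58.8%), beside 27.7% of all genes, and the lowest for 1, beside 17.1% of all genes. The control was the highest for 7 members (29.6% of all genes), the library labelled Tut1 KO for 5 (23.1%) and that labelled Trp53 KO for 2 (19.6%). The lowest level was in the library labelled Tut1 KO for 12 members (41.1% of all genes), in that labelled Trp53 KO for 11 (24.3%) and in the control for 10 (17.5%). The count of 20 became 14 when the library medians were set to the same value, beside 23.9% of all genes, and 16 with the GC and length correction, beside 24.2%. The members in which the library labelled double KO was highest exceeded the control by at most 0.31, the value of Nop14 and Wdr75.

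**Figure D4:**
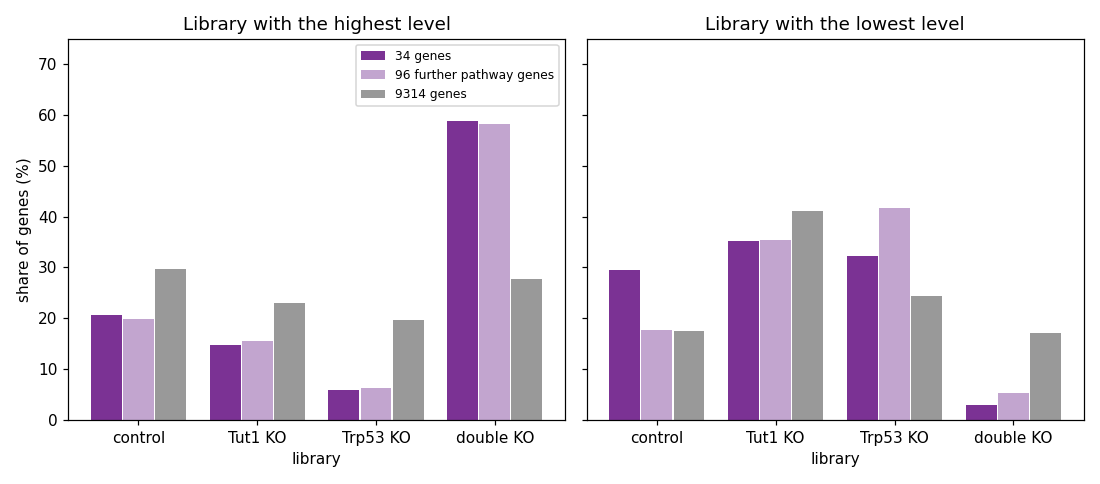
Share of genes (%) whose highest level (left) or lowest level (right) was in each of the 4 libraries, for the 34 members, the wider list of 96 genes and all 9314 genes. The double KO library holds the highest level of 58.8% of the members and 58.3% of the wider list, against 27.7% of all genes.

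The libraries were also sorted by label. In 11 of 34 members (32.4%) both libraries with the Tut1 label lay above both without it, beside 15.3% of all genes, and in 0 members both lay below, beside 17.1%. These were Bysl, Fbl, Nhp2, Nop10, Nop14, Nop2, Polr1b, Rrp12, Rrp9, Utp20 and Wdr75. The sizes were small, from 0.01 (Nop2) to 0.24 (Nop10) with Trp53 intact and from 0.08 (Fbl) to 0.32 (Utp20) without it. For the Trp53 label, 4 members lay above (Gar1, Nop16, Nop56 and Polr1a), beside 14.2% of all genes, and 2 below (Bop1 and Ubtf), beside 13.4%. The count below depended on the scaling. It was 4 with medians set to the same value (15.4% of all genes), 4 with quantile normalization (15.3%) and 7 with the GC and length correction (15.8%). The libraries of a label differ in their other genotype and are not replicates.

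A wider list of 100 other ribosome biogenesis genes, of which 96 reached 10 TPM, gave close values. None of them passed 1 in any comparison, and the medians over the list were -0.06 for the library labelled Tut1 KO minus the control, 0.18 for double KO minus Trp53 KO, -0.11 for Trp53 KO minus control, 0.14 for double KO minus Tut1 KO and 0.08 for double KO minus control. The first of these turned to 0.04 when the library medians were set to the same value. Over the alternatives those of double KO minus Trp53 KO, double KO minus Tut1 KO and Trp53 KO minus control came as near to 0 as 0.14, 0.05 and -0.05. In double KO minus Trp53 KO 84 of 95 genes were above 0, beside 58.7% of all genes. The library labelled double KO was the highest for 56 of 96, beside 27.7% of all genes. Both libraries with the Tut1 label lay above both without it in 34 of 96 (35.4%) and below in 5 (5.21%), beside 15.3% and 17.1% of all genes.

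The genes of this list that differed most were not the same in each comparison. Ppan, a factor of the large subunit whose exons overlap snoRNA genes, had 52.1, 76.5, 51.9 and 87.5 TPM and Ddx55, a helicase of the same subunit, had 15.96, 25.9, 14.9 and 24.6 TPM. Both were higher with the Tut1 label, by 0.55 and 0.66 with Trp53 intact and by 0.74 and 0.68 without it, and both kept their sign under the 4 scalings. Nvl, an ATPase that releases factors from the large subunit, had 36.6, 20.6, 26.8 and 18.96 TPM and was lower with the Tut1 label, at -0.80 and -0.48 (-0.49 and -0.56 with the GC and length correction). Nmd3, the export adaptor of the large subunit, had 19.4, 32.5, 27.2 and 27.3 TPM. It was higher in the library labelled Tut1 KO than in the control by 0.72, a value that passed the threshold, at 1.26, with the GC and length correction.

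Krr1 and Esf1, factors of the small subunit, resembled Ddx21. Krr1 had 31.1, 21.5, 28.3 and 35.5 TPM and Esf1 had 21.5, 13.7, 17.5 and 22.5 TPM, and in double KO minus Tut1 KO they were at 0.70 and 0.67, and at 0.39 and 0.31 with the GC and length correction. Riok1, a kinase of the maturing small subunit, and Utp23 of the processome were the lowest in Trp53 KO minus control, at -0.50 and -0.55, with 18.1, 13.7, 12.4 and 15.2 TPM and 11.6, 10.9, 7.59 and 12.5 TPM. Tbl3 had 33.6, 42.4, 42.4 and 32.7 TPM, higher in both libraries with a single knockout label, and Rrp36 had 30.6, 34.7, 24.04 and 23.9 TPM, lower in both libraries with the Trp53 label. Shq1, an assembly factor of the H/ACA particle, had 11.2, 8.11, 9.35 and 8.05 TPM and was -0.43 from the control in the library labelled double KO.

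The proteins of the ribosome itself are what these factors assemble. Over 79 expressed ribosomal protein genes the medians were 0.23 for the library labelled Tut1 KO minus the control, -0.05 for double KO minus Trp53 KO, 0.13 for Trp53 KO minus control, -0.17 for double KO minus Tut1 KO and 0.08 for double KO minus control. In the first 4 the sign was opposite to that of the members. The ribosomal protein medians kept these signs when the library medians were set to the same value and with the GC and length correction, but with quantile normalization they shrank to 0.10, 0.00, 0.05, -0.05 and 0.05. The difference between the lists was not tested, and the sign of the member median in the first comparison depended on the scaling. Leaving out the ribosomal protein and mitochondrial genes (119) and rescaling the rest kept the signs of all 5 member medians.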

How the data were processed

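The deposited table gave transcript levels in TPM for 55487 genes in 4 libraries, made by the authors with Trimmomatic, HISAT2 and StringTie on mm10 per the submitters' processing notes. For this table the versions of HISAT2 and StringTie, the annotation release, the use of strand and the pooling of animals were not given in the sources used here. The labels name an Illumina stranded mRNA kit, whereas the series text describes Nanopore long reads. TPM hold no read totals, so depth and its precision are unknown.

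Differences of log2(TPM + 1) were taken for genes with at least 10 TPM in at least 1 of the 2 libraries compared (8950 to 9055 genes) and called past 1. With 1 library per group no test was run, and no column of values was left unused. Members are reported by role, and of the wider list those with the 2 largest differences in each direction per comparison are named. The members and lists were chosen with earlier results of these data known. Positions, length and GC content (9305 of 9314 genes) came from GENCODE M21 (GRCm38), and promoters from RefSeq (GRCm38.p6). Length and GC content are those of the longest annotated transcript of a gene, of any type, and not of the transcripts expressed in these cells. Python 3.11.15, numpy 2.4.6, pandas 2.3.3 and matplotlib 3.10.9 were used, and the code was tested on simulated libraries. Alternatives changed the pseudocount, the minimum TPM, the scaling (library medians, quantiles, leaving out ribosomal protein and mitochondrial genes, GC content and length), the threshold and the gene set. Leaving out members with overlapping exons was chosen after seeing the data.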

Additional observations from a re-analysis of the deposited data

Results flagged for a closer look

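The median of the members lay on opposite sides of 0 in the comparisons that bear on the Tut1 label, at -0.052 for the library labelled Tut1 KO minus the control and at 0.17 for double KO minus Trp53 KO. The medians of all genes, -0.09 and 0.05, did so too, and 18 of the 34 members had opposite signs beside 54.2% of all genes. The first member median changed sign with the scaling. Ddx21, Nop58 and Wdr43 were the members of opposite signs with the widest gap in the deposited values, at -0.79, -0.67 and -0.67 (first difference less the second, log2 scale). This order depended on the scaling. With the GC and length correction their gaps were -0.51, -0.07 and -0.37, while Polr1a was at 0.74 and Tcof1 at -0.57, and with quantile normalization Npm1 had the widest gap, -0.69. The differences between the comparisons were not tested, since each group is 1 library, and the sex-linked split of the libraries cannot be told apart from them.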

How the results depend on the processing

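No paired analysis was possible because each group is 1 library and the labels carry no replicate numbers, and for the same reason no replicate could be left out. No member passed 1 under any of the alternatives that kept that threshold, and at 1.5-fold 1 member (Polr1a) was lower in double KO minus Trp53 KO and 1 was higher in Trp53 KO minus control. Of 312 recomputed summary values, 291 stayed within 0.1 on the log2 scale or 1.5 times the count, 14 moved further and 7 changed sign. All 7 belong to the library labelled Tut1 KO minus the control: the member median of -0.052 became 0.041 with library medians set to the same value, 0.030 with quantile normalization, 0.067 with the GC and length correction and 0.011 over the 20 members without overlapping exons, and the median of the wider list became 0.036, 0.052 and 0.052 under the first 3. The cause was not tested. Members below in both libraries with the Trp53 label numbered 4 with medians set to the same value (15.4% of all genes). They numbered 4 with quantile normalization (15.3%) and 7 with the GC and length correction (15.8%). Members lowest in double KO numbered 2, 2 and 2 in these settings, beside 20.4%, 20.6% and 20.1% of all genes. Without mitochondrial and ribosomal protein genes 1 member lay below in both libraries with the Tut1 label, beside 17.0% of all genes. Over the 20 members without overlapping exons, from fewer genes, 2 lay above (14.2% of all genes) and 1 below (13.4%) with the Trp53 label. Of the 20, 7 lay above with the Tut1 label (15.3%), and double KO was the highest for 12 (27.7%) and the lowest for 0 (17.1%). Of 1965 values of single members, 68 moved by more than 0.1. Both tallies include values that could not move. All 34 members pass the minimum TPM, so changing it leaves their medians as they were. The pseudocount, the minimum and the threshold cannot alter the counts by label or by highest and lowest library. The minimum, the threshold and the gene set cannot alter a difference of a single member.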

Other observations

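Several members carry snoRNA genes in their introns, a known arrangement in which a nucleolar protein gene also supplies guide RNAs for ribosomal RNA. The annotation places 16 snoRNA genes inside 5 members (Dkc1, Ncl, Nop56, Nop58 and Wdr43), and 10 of them stayed below 1 TPM in all 4 libraries. The highest was Snord57 in Nop56, at 5.13 TPM in the control and 0.0896, 0.0527 and 0.0560 TPM in the libraries labelled Tut1 KO, Trp53 KO and double KO. Snord53 in Wdr43 had 2.28, 0.191, 1.14 and 1.13 TPM in the same order. The others that reached 1 TPM were Gm24451 in Nop56 (3.64, 2.27, 1.67 and 3.42 TPM) and Gm26293 in Nop58 (2.83, 0.384, 0.122 and 0.000782 TPM). So did Gm22858 in Wdr43 (1.10, 0.944, 0.307 and 0.476 TPM) and Gm26287 in Nop58 (1.32, 1.38, 1.08 and 0.470 TPM), of which the last was not highest in the control. The library kit selects polyadenylated RNA, which mature snoRNAs lack, and the exons of Snord57 overlap those of an annotated Nop56 transcript, so these values may not be levels of mature snoRNAs. Mycn, a relative of Myc that is active in neural progenitors, had 2.11, 2.11, 2.58 and 3.32 TPM.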
